A study of Clonorchis sinensis with 4 samples.

Results

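The piRNA entries of 1 copy of a Gypsy retrotransposon were followed through the life cycle of Clonorchis sinensis, the Chinese liver fluke. The copy lies on the minus strand of scaffold DF143043.1 between positions 510899 and 512225, as the deposited tables name it, and is annotated there as LTR/Gypsy. Its members are all entries of class piRNA whose locus field gives this copy, which were 483 of the 5927 piRNA entries listed over the stages. The locus was chosen by its summed piRNA tags in the stage libraries, so its levels, entry numbers and ratios are a description and carry no test.

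The study sequenced small RNA from eggs, from metacercariae (the encysted larvae that fish carry), from adult worms and from extracellular vesicles that adult worms secreted. Each was 1 library of total RNA extracted with Trizol, and the labels state no treatment, strain, host or worm age. Each group being 1 library, no difference below has a replicate check. Intervals are exact at 95% and cover only the counting error of tags, which lack molecular identifiers and are not independent molecules. The egg library had 20541335 annotated tags, of which 98662 were piRNA tags. The metacercaria library had 20490790 and 126386, the adult library 19404746 and 177879, and the vesicle library 2361216 and 5977.

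piRNAs are small RNAs that guide PIWI proteins to silence transposons, best known from the germ line of flies and mice. Gypsy elements are retrotransposons flanked by long terminal repeats that copy themselves through RNA. In tapeworms and schistosomes no gene of the PIWI subfamily has been found, so "piRNA" is used here as the class name in the authors' tables. Every piRNA entry of the series belonged to an LTR/Gypsy copy, and 176 copies had entries, of which 77 lay on the minus strand. Copies of such elements can be nearly identical. How the authors placed a tag that matches several copies is not given in the sources used here, and each entry stood under 1 copy only.

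The locus was densely covered. Its 483 entries came from a span of 1326 bases, which is 364.3 entries per kb or 1 entry for every 2.75 bases. Among the 21 copies with at least 50 entries, this density ranked 4, where the median was 175 and the highest 768.7 entries per kb. In tags per kb the locus held 5173 in eggs, 5429 in metacercariae and 11238 in adults, ranks 6, 5 and 6 of the same 21. Sequences of single entries and their places within the copy were not analysed here. Entries so closely packed can overlap, and they are not independent of each other.

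The locus supplied a larger share of piRNA tags in adults than in either other stage. Eggs held 6860 tags of the locus, metacercariae 7199 and adults 14901. These were 6.95% of piRNA tags in eggs (95% interval 6.80 to 7.11), 5.70% in metacercariae (5.57 to 5.83) and 8.38% in adults (8.25 to 8.51). It ranked 3 among all copies by tags in each of these stages. As listed, adults had the highest share and metacercariae the lowest, and the place of adults above eggs depends on unlisted entries, as given below. Whole organisms were sequenced, so more cells with such RNA and more RNA per cell cannot be told apart.

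Against all annotated tags the order of eggs and metacercariae changed. The locus made up 334 RPM (tags per 1000000 annotated tags) in eggs (326.1 to 342), 351.3 RPM in metacercariae (343.3 to 359.5) and 767.9 RPM in adults (755.6 to 780.3). The adult library stood clear of the others on this scale, while eggs and metacercariae lay close together. The piRNA class as a whole made up 0.480% of the annotated egg tags, 0.617% in metacercariae and 0.917% in adults. Taking all piRNA tags, the ratio was 1.28 for metacercariae over eggs, 1.91 for adults over eggs and 1.49 for adults over metacercariae, which shifts every log2 ratio by 0.36, 0.93 and 0.57 between the scales.

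**Figure D1:**
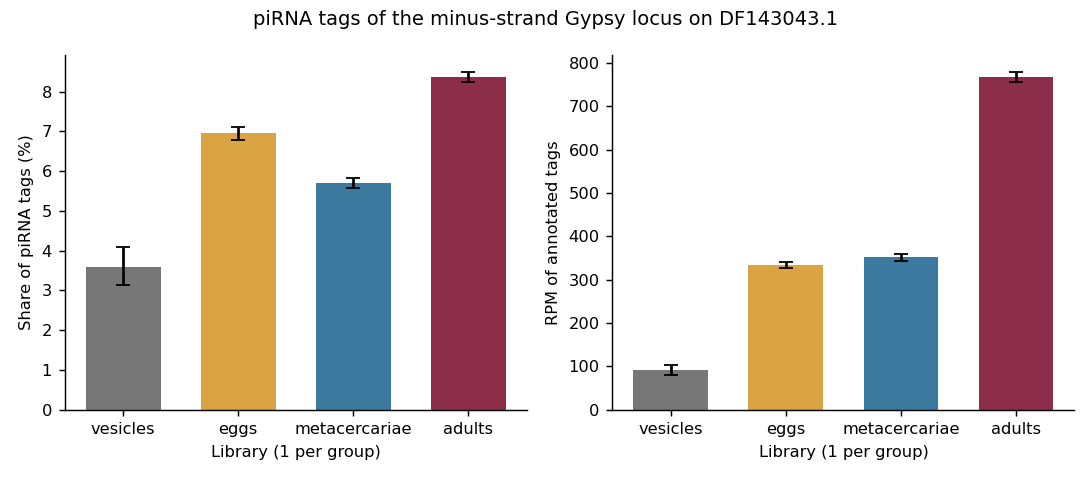
Summed tags of the locus in each library, as a share of piRNA tags in percent (left) and in RPM of annotated tags (right). Bars are single libraries and error bars exact 95% intervals of counting error. On both scales adults are the highest and vesicles the lowest, at 8.38% and 3.60% of piRNA tags, while eggs and metacercariae change places between the panels.

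Metacercariae over eggs, the ratio of the locus was 0.819 per piRNA tag (0.793 to 0.847) and 1.05 per annotated tag (1.02 to 1.09). Its direction therefore rested on the scale. Adults over eggs, it was 1.20 (1.17 to 1.24) and 2.30 (2.23 to 2.37), and adults over metacercariae 1.47 (1.43 to 1.51) and 2.19 (2.13 to 2.25). The adult-over-egg ratio per piRNA tag was small enough that unlisted entries matter. With 9 tags, the most an unlisted entry can hold, given to each of them, it was 0.982, or 1.15 when the piRNA total was raised in the same way. Over the entries listed in all 3 stages alone it was 1.02.

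Other copies had other profiles. The copy on DF143974.1 (plus strand, 648 entries) had annotated-tag ratios of 0.822 for metacercariae over eggs, 1.62 for adults over eggs and 1.98 for adults over metacercariae. The copy on DF142881.1 (plus strand, 937 entries) had 1.80, 1.35 and 0.751 for the same pairs. The sum of all copies other than the DF143043.1 locus had 1.30, 1.88 and 1.44. As listed, the locus thus lay above the sum of the others in both adult pairs and below it for metacercariae over eggs. For adults over eggs this amounts to a ratio above 1 per piRNA tag, which depended on unlisted entries as given above. Among 73 copies with at least 100 tags in every stage, its ratios per piRNA tag ranked 44, 20 and 11 from the highest for metacercariae over eggs, adults over eggs and adults over metacercariae, against medians of 0.905, 0.913 and 1.09. No test of these differences is possible with single libraries.

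**Figure D2:**
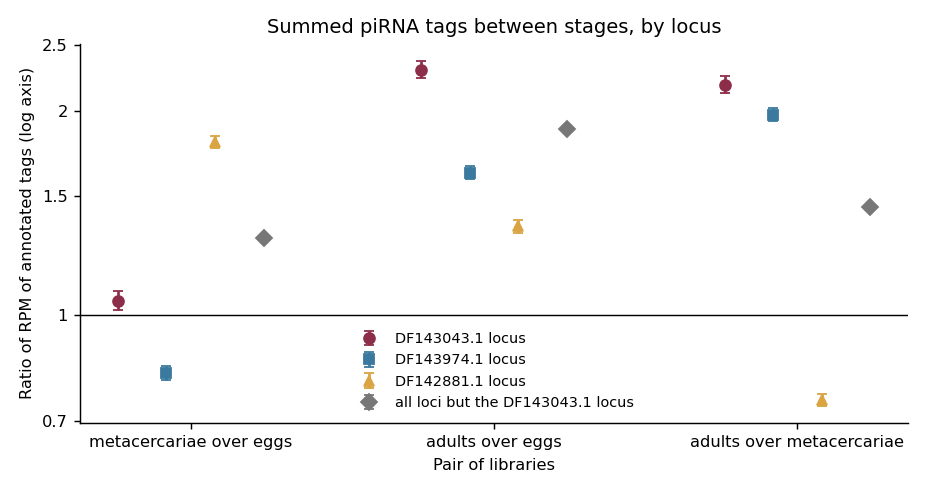
Ratio of RPM of annotated tags between stages (log axis) for the DF143043.1 locus, the copies on DF143974.1 and DF142881.1, and all copies but the DF143043.1 locus, with exact 95% counting intervals. As listed, the DF143043.1 locus has the highest of the plotted ratios in both adult pairs, at 2.30 and 2.19.

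More entries of the locus reached the listing minimum in adults than in the other stages. There were 269 in eggs, 271 in metacercariae and 410 in adults, which were 8.44%, 7.03% and 8.97% of the piRNA entries of those libraries. piRNA entries are listed from 10 tags upward, and 10 tags per library are, in RPM of piRNA tags, 101.4 for eggs, 79.1 for metacercariae and 56.2 for adults. With 101.4 RPM required of every stage, 269 entries remained in eggs, 224 in metacercariae and 249 in adults. These were 8.44%, 7.2% and 9.3% of all piRNA entries at that minimum. With 0.515 RPM of annotated tags required of every stage, the numbers were 249, 255 and 410, of 2891, 3576 and 4573 piRNA entries. The adult number was thus the largest per annotated tag, as it also was over all piRNA entries. Per piRNA tag the adult number of the locus exceeded that of metacercariae but not that of eggs. All piRNA entries numbered 3189 in eggs, 3111 in metacercariae and 2677 in adults at that minimum.

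Most tags came from entries that all 3 stages had in common. These were 175 entries, 36.2% of the 483, where 34.8% of the entries of other copies were listed in all 3, and their share of the locus's tags was 78.1% in eggs, 77.5% in metacercariae and 66.2% in adults. Eggs and metacercariae had 184 entries in common, 68.4% of the egg entries and 67.9% of the metacercaria entries, where other copies had 70.5% and 57.5%. Eggs and adults had 227 in common, which were 84.4% of the egg entries and 55.4% of the adult entries (81.0% and 56.8% in other copies). For metacercariae and adults the number was 231, 85.2% of the metacercaria entries and 56.3% of the adult entries (75.2% and 64.7% in other copies).

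Entries listed in a single stage were scarce in tags. They are below 10 tags in the other stages by definition, which favours low numbers, so this is not read as a trait of the locus. In eggs there were 33, with 10 to 36 tags (median 13), and in metacercariae 31, with 10 to 27 tags (median 13). In adults there were 127, with 10 to 56 tags (median 15), and 97 of them had fewer than 20. These 127 were 26.3% of the entries of the locus, where entries of other copies were listed in adults alone in 18.4% of 5444 cases. Entries listed in metacercariae alone were 6.42% at the locus and 13.3% elsewhere. The copy on DF143974.1 was close to the locus in the last, at 7.56%, and had 17.6% in adults alone, while DF142881.1 had 21.6% and 11.4%. An unlisted entry can hold up to 9 tags, so being listed in 1 stage does not show that the entry is absent from the others.

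**Figure D3:**
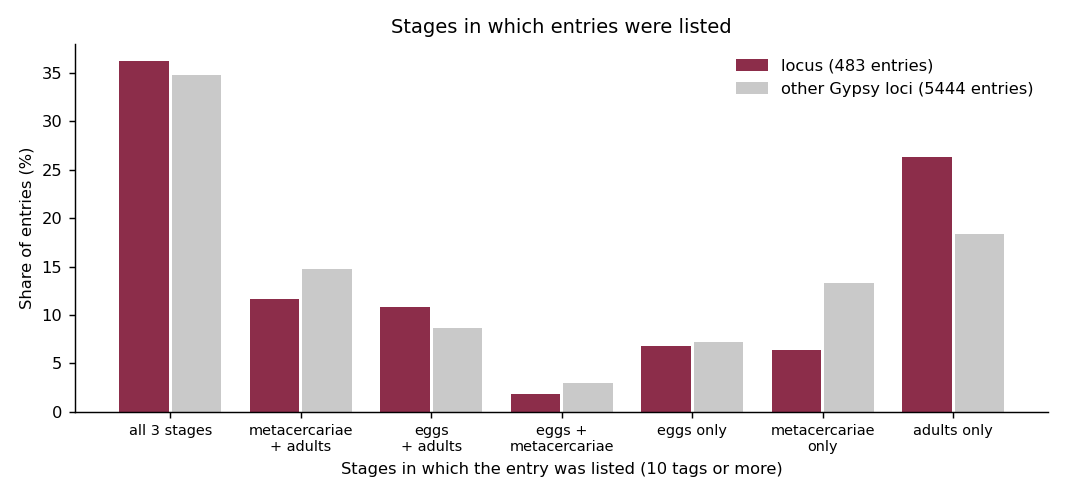
Share of entries (percent) by the stages in which they were listed with 10 tags or more, for the 483 entries of the locus and the 5444 entries of other Gypsy copies. The largest gap on the locus's side is in entries listed in adults alone, 26.3% against 18.4%, and on the other side in those of metacercariae alone, 6.42% against 13.3%, a pooled value that includes 21.6% for DF142881.1 and 7.56% for DF143974.1.

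Tags were spread over many entries and no single entry carried the locus. The share of the most abundant entry was 2.49% in eggs, 2.76% in metacercariae and 1.94% in adults, and the leading 5 held 9.91%, 7.71% and 6.66%. A share of 50% of the tags came from 61 entries in eggs, 66 in metacercariae and 79 in adults, which were 22.7%, 24.4% and 19.3% of those listed. The median number of tags per entry was 17 in eggs, 19 in metacercariae and 22 in adults. Entries of at least 100 tags numbered 5, 2 and 26 in the same order. At the low end, 20 entries in eggs, 16 in metacercariae and 28 in adults had exactly 10 tags, and nothing below that is visible. Of the 483, 33 never exceeded 10 tags, among them novel_pir1932 and novel_pir1942, each listed with 10 tags in metacercariae alone.

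In both copies with more tags, too, many entries shared the signal. On DF143974.1 the share of the leading entry was 3.32% in eggs, 2.72% in metacercariae and 2.81% in adults, and 15.8%, 18.7% and 14.8% of entries held 50% of the tags. On DF142881.1 the leading entry held 6.28%, 3.45% and 3.51%, and 19.7%, 18.3% and 19.7% of entries held 50%. The DF143043.1 locus had the lowest share in its leading entry in eggs and adults of these 3 copies, and DF143974.1 in metacercariae.

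**Figure D4:**
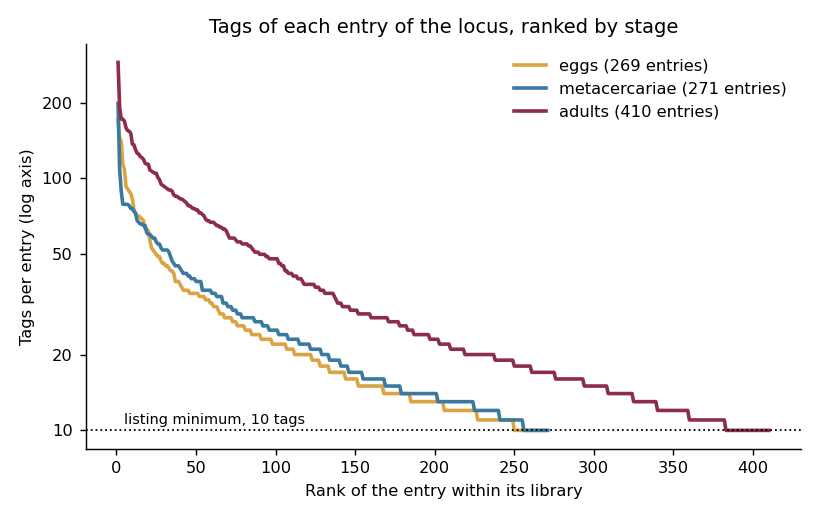
Tags per entry (log axis) against the rank of the entry within its library, for the entries of the locus in eggs, metacercariae and adults. The curves fall gradually to the listing minimum of 10 tags, which the adult curve reaches at 410 entries, against 269 for eggs and 271 for metacercariae.

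The leading entries differed between stages. Each stage's entries were ranked on its own single library, and whether the order exceeds counting error was not tested. In eggs novel_pir1999 came first with 171 tags, and it had 73 in metacercariae and 169 in adults. In metacercariae novel_pir2293 led with 199 tags, where eggs had 146 and adults 154. In adults novel_pir1988 led with 289 tags, where eggs had 109 and metacercariae 89. novel_pir1988 was the single entry among the leading 5 of every stage.

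The other leading entries of eggs were weaker in adults per piRNA tag. They were picked for their egg tags, which favours lower values in other libraries, so nothing is read from the direction. novel_pir2159 had 140, 79 and 80 tags in eggs, metacercariae and adults, which were 1419.0, 625.1 and 449.7 RPM of piRNA tags. novel_pir2375 had 114, 78 and 46 tags, or 1155.5, 617.2 and 258.6 RPM, and ranked 4 in eggs but 102 in adults. Among the leading entries of metacercariae, novel_pir2356 had 83, 109 and 91 tags in eggs, metacercariae and adults. Rank 4 there was shared by 4 entries with 79 tags, which differed in eggs. Of these novel_pir1968 had 24, 79 and 78 tags and novel_pir2143 22, 79 and 125, while novel_pir2159 and novel_pir2154 had 140 and 53 in eggs. Among those of adults, novel_pir2154 had 53, 79 and 191 tags in eggs, metacercariae and adults, novel_pir2258 had 72, 55 and 172, and novel_pir2283 had 42, 21 and 172.

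Over the 175 entries listed in every stage, the highest stage exceeded the lowest by a median of 2.08-fold per piRNA tag (quartiles 1.6 and 2.8, largest 6). The 1895 such entries of other copies had a median of 2.17-fold. Adults were the highest stage for 68 of the 175 entries (38.9%), eggs for 59 (33.7%) and metacercariae for 48 (27.4%). Elsewhere adults were highest for 24.4%, eggs for 41.1% and metacercariae for 34.5%. These pooled values include 28.2%, 53.8% and 17.9% on DF143974.1, and 8.15%, 32.9% and 58.9% on DF142881.1, in the same order. Per annotated tag adults were highest for 128 of the 175 entries (73.1%), eggs for 19 and metacercariae for 28, and elsewhere adults for 55.7%. The split among stages thus depended on the scale, and how much of it is counting error was not tested. Pearson's r of log2 tags across entries listed in both libraries was 0.553 for metacercariae and eggs (184 entries), 0.601 for adults and eggs (227) and 0.561 for adults and metacercariae (231), with Spearman's rho of 0.497, 0.572 and 0.531. The points share their libraries and depth and may overlap in sequence, so these values only describe. Other copies gave r of 0.571, 0.668 and 0.629.

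The number of entries that differed by a large factor between stages depended on what an unlisted value is taken to be. An entry is counted as past the fold when the ratio of its RPM of piRNA tags is at least 4, with 1 RPM added to both, its interval lies beyond 2-fold and the higher library holds at least 10 tags. An unlisted value is taken as 9 tags, so ratios that rest on one are bounds with respect to that value and the counts are minimums. Such a bound leaves out counting error, which is covered by the interval printed with it, computed at 9 tags. With unlisted values at 0 instead, metacercariae over eggs gave 67 higher and 89 lower of 356 entries (background over all piRNA entries 27% and 21%). Adults over eggs then gave 103 and 47 of 452 (18.9% and 12.9%), and adults over metacercariae 138 and 42 of 450 (20.4% and 18.5%). These counts follow from the values that chose the locus, and nothing is read from them.

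For metacercariae over eggs, 2 of 356 entries were past the fold on the higher side, where the background over all piRNA entries was 1.71%, and 10 on the lower side, with a background of 2.46%. The higher ones were novel_pir2015, with 59 tags in metacercariae and unlisted in eggs, at least 5.12-fold, and novel_pir2166, with 51 tags in metacercariae and unlisted in eggs, at least 4.42-fold. On the lower side novel_pir2240 was unlisted in metacercariae and had 52 tags in eggs, a difference of at least 7.40-fold (3.61 to 17.1). novel_pir2374 was likewise unlisted in metacercariae, with 47 tags in eggs, and at least 6.69-fold lower (3.24 to 15.5). novel_pir2305 had 19 tags in metacercariae and 89 in eggs, 6.00-fold lower (3.63 to 10.4). Of the 12 entries past the fold, 8 were unlisted in 1 of the libraries.

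For adults over eggs, 4 of 452 entries were past the fold on the higher side (background 0.754%) and 8 on the lower side (background 2.38%). novel_pir1991 had 159 tags in adults and was unlisted in eggs, at least 9.80-fold higher (5.03 to 21.8). novel_pir2015 had 130 tags in adults and was unlisted in eggs, at least 8.01-fold higher (4.09 to 17.9). Both of its ratios rest on the same egg library. novel_pir2339 had 82 tags in adults and 10 in eggs, 4.55-fold higher (2.35 to 9.84). Lower in adults was novel_pir2081, unlisted in adults with 36 tags in eggs, at least 7.21-fold (3.41 to 17.0). Also lower were novel_pir2322 with 12 and 36 tags, 5.41-fold (2.75 to 11.4), and novel_pir2067 with 10 and 29 tags, 5.23-fold (2.48 to 12.0).

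For adults over metacercariae, 15 of 450 entries were past the fold on the higher side (background 1.42%) and 2 on the lower side (background 3.04%). These were 3.33% and 0.444% of the locus's entries. The copy on DF143974.1 had 1.9% and 0.346%, and that on DF142881.1 had 0.235% and 8.94%, so few lower entries were not particular to the locus. novel_pir1991 again led, with 159 tags in adults and 13 in metacercariae, 8.69-fold higher (4.94 to 16.7). novel_pir2283 had 172 and 21 tags, 5.82-fold higher (3.69 to 9.64), and novel_pir1977 had 155 and 20 tags, 5.51-fold higher (3.45 to 9.27). The lower ones were novel_pir1997, with 12 tags in adults and 45 in metacercariae, 5.28-fold (2.75 to 11.0), and novel_pir2265, with 12 and 41 tags, 4.81-fold (2.48 to 10.1). The adult pairs share the adult library, so novel_pir1991 does not count as seen in separate data.

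**Figure D5:**
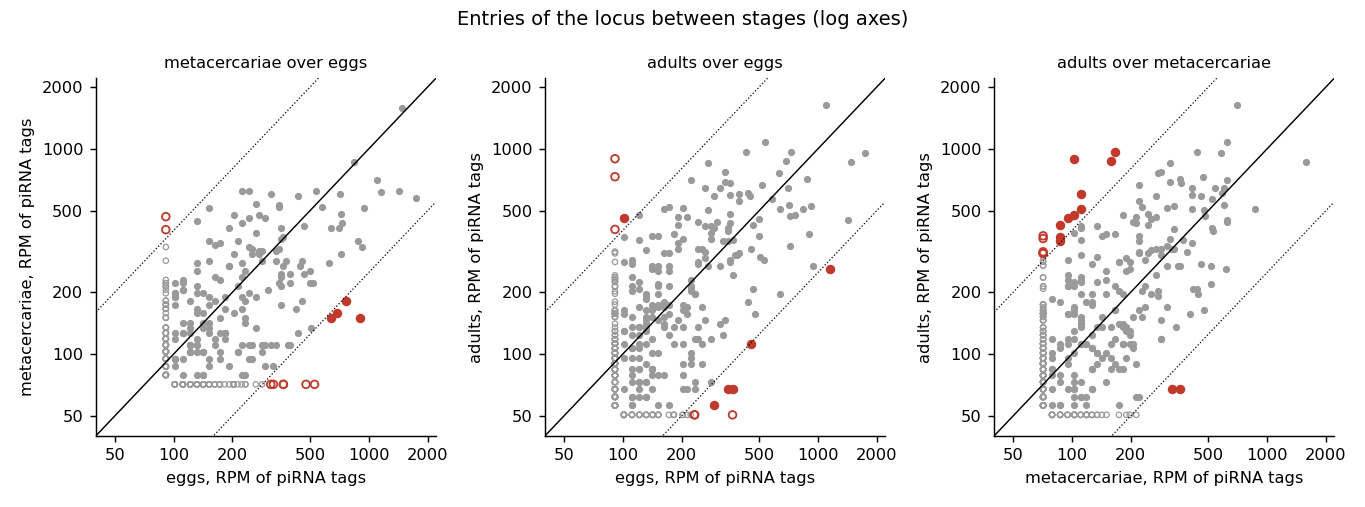
RPM of piRNA tags of each entry of the locus, with the later stage on the vertical and the earlier on the horizontal axis (log axes). Open points are unlisted in 1 library and drawn at 9 tags, red points are past the fold, the solid line marks equal values and the dotted lines 4-fold differences. Red points number 2 above and 10 below the line for metacercariae over eggs, 4 and 8 for adults over eggs, and 15 and 2 for adults over metacercariae.

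The split of these entries depended on the scale. Per annotated tag and with 0.1 RPM added, metacercariae had 2 entries above and 3 below eggs (background 2.73% and 0.958%). On that scale adults had 33 above and 0 below eggs (background 4.70% and 0.155%), and 27 above and 0 below metacercariae (background 3.62% and 0.618%). With any ratio whose interval excluded 1 counted per piRNA tag, metacercariae had 28 entries above and 72 below eggs (background 13.9% and 17.5%). By the same count adults had 59 above and 65 below eggs (background 9.86% and 19.3%), and 92 above and 39 below metacercariae (background 13.1% and 20.2%). For that last pair the locus had 20.4% above and 8.67% below, close to 18.7% and 10.4% on DF143974.1, while DF142881.1 had 3.65% and 40.9%. The median log2 ratio over the locus's entries was -0.21, -0.11 and 0.14 for the 3 pairs in that order, against -0.07, -0.32 and -0.20 over the entries of other copies. These medians were -0.50, -0.36 and 0.05 on DF143974.1, and 0.17, -0.58 and -0.86 on DF142881.1.

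In vesicles the locus was sparse. The vesicle library listed 14 entries of the same copy among its 208 piRNA entries, with 25, 22, 20, 18, 18, 17, 14, 13, 13, 13, 12, 10, 10 and 10 tags. The largest, numbered novel_pir72 in the vesicle table, held 11.6% of the 215 tags. The table numbers its entries anew, so none could be matched to an entry of the stages. By tags the locus ranked 8 among the 54 copies listed in vesicles. It made up 3.60% of piRNA tags in vesicles (3.14 to 4.10) and 8.38% in adults, a ratio of 0.429 (0.374 to 0.491). The same ratio was 1.33 for the copy on DF143974.1 (1.25 to 1.42) and 0.718 for that on DF142881.1 (0.651 to 0.790).

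Per annotated tag the locus had 91.1 RPM in vesicles (79.3 to 104.1) and 767.9 RPM in adults, a ratio of 0.119 (0.103 to 0.136). All piRNA tags together gave 0.276 (0.269 to 0.283). The vesicle library was smaller, so its listing minimum of 10 tags was 4.24 RPM of annotated tags, against 0.515 RPM in adults. With 4.24 RPM required of adults as well, 41 adult entries with 4942 tags remained, 254.7 RPM. The ratio was then 0.358 for the locus (0.310 to 0.410) and 0.724 for the other copies (0.704 to 0.743). As a share of the piRNA tags left above that level, the locus held 3.60% in vesicles and 7.02% in adults (6.83 to 7.21), a ratio of 0.512 (0.445 to 0.587). Per piRNA tag no equal minimum could be set, since 10 tags in vesicles are 1673 RPM of piRNA tags and the leading adult entry had 1625. On that scale the lower share in vesicles therefore rests on unequal minimums, and with the minimum equal per annotated tag both ratios were closer to 1.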

How the data were processed

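Small RNA libraries of eggs, metacercariae, adults and adult vesicles were used, 1 per group. Each deposited table lists small RNA entries with unnormalized tag counts, and each count column summed to the total in its header. The deposited column headed TPM equalled the count over that total times 1000000, so it is RPM relative to annotated tags, uncorrected for length. Aligner, piRNA caller and genome build were not given in the sources used here. The deposited tables of a stage for miRNAs and piRNAs held the same entries. Deposited counts of vesicle tags per scaffold were used for 1 value, and 1 deposited column of another species was not used.

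Tags were summed over the locus and scaled to piRNA tags or annotated tags. Ratios carry exact conditional binomial intervals and shares Clopper-Pearson intervals at 95% (Python 3.11.15, scipy 1.17.1). The ratio and fold rule were tested on simulated data, drawn as independent counts per entry with counting error only. The simulation does not cover overlapping entries or differences between replicate libraries. Entries named are the 5 most abundant of each stage, the 3 largest ratios each way past the fold, the entries nearest the listing minimum and, in vesicles, all by value. novel_pir72 was singled out after its value was seen. The locus and lists were chosen with earlier results of these data known. Planned sequence features were not analysed here. Alternatives covered scaling, minimum, pseudocount, unlisted values and entry sets.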

Additional observations from a re-analysis of the deposited data

How the results depend on the processing

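No paired analysis was possible because each group is 1 library. Against all annotated tags vesicles held 0.00911% of tags in the locus, eggs 0.0334%, metacercariae 0.0351% and adults 0.0768%, and its ratios were 1.05 for metacercariae over eggs, which reversed the direction, 2.30 for adults over eggs and 2.19 for adults over metacercariae. With 9 tags for each unlisted entry the ratio was 0.982 for adults over eggs, which reversed, and 1.21 for adults over metacercariae, and with the piRNA total raised too the 3 ratios were 0.881, 1.15 and 1.30. Entries listed in every stage gave 1.02 for adults over eggs and 1.26 for adults over metacercariae, and scaling to the piRNA tags outside the locus gave 1.51 for the last pair. Vesicles over adults gave 0.119 per annotated tag and 0.512 at an equal minimum. With at least 50 tags, 25 entries were left in eggs, 33 in metacercariae and 93 in adults, 50% of the tags came from 9, 14 and 32 entries, and the leading 5 held 32.9%, 23.9% and 12.1%. Over entries listed in every stage 50% came from 40 entries in eggs and 43 in adults, and the leading 5 held 12.7%, 9.94% and 10.1% in eggs, metacercariae and adults. At an equal minimum per piRNA tag adults had 249 entries. Per annotated tag with 1 RPM added, entries past the fold, higher and lower, numbered 0 and 0 for metacercariae over eggs (background 0.271% and 0.146%). Adults over eggs gave 2 and 0 (0.541% and 0.0387%), and adults over metacercariae 3 and 0 (0.473% and 0.0364%). An added 1 RPM is about the level of a median entry and lowers the ratios of sparse entries. With 0.1 RPM added the counts were 3 lower, then 33 and 0, then 27 and 0. With at least 50 tags in the higher library the lower counts were 5, 1 and 0 (background 1.33%, 0.638% and 1.25%). With unlisted entries at 0 the counts higher and lower were 67 and 89, 103 and 47, and 138 and 42. With intervals that exclude 1 they were 28 and 72, 59 and 65, and 92 and 39. Backgrounds for 0.1 RPM, unlisted entries at 0 and these intervals are given above. The annotated scaling and equal minimum for vesicles over adults, the equal minimum for the ratios between stages, the equal minimum per annotated tag, the annotated scaling with 0.1 RPM, the raised total and the intervals that exclude 1 were added after seeing the data. For 2 of the 3 ratios between stages, only adults over metacercariae aside, the direction rested on a setting.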

Other observations

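A second Gypsy copy lies on the same strand of the scaffold, at positions 512654 to 513046, with 429 bases between the copies. It had 46 entries, novel_pir2411 to novel_pir2456 in number. Eggs held 418 of its tags, metacercariae 1162 and adults 1606, which were 0.424%, 0.919% and 0.903% of piRNA tags. The larger copy had 16.4, 6.20 and 9.28 times as many tags in the same libraries. Per piRNA tag the smaller copy had a ratio of 2.17 for metacercariae over eggs (1.94 to 2.43), 2.13 for adults over eggs (1.91 to 2.38) and 0.982 for adults over metacercariae (0.910 to 1.06), where the larger copy had 0.819, 1.20 and 1.47. In vesicles the smaller copy had 2 entries with 29 tags, a ratio to adults of 0.537 per piRNA tag (0.359 to 0.775), where the larger copy had 0.429.

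In the vesicle library 836 tags mapped to the whole scaffold, rank 218 of 11816 scaffolds. The larger copy had 215 tags in the vesicle table. Both counts were made separately, and the 2361216 annotated tags of the library exceed the 2235582 mapped tags of the scaffold counts, so the 215 need not be part of the 836.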
